A study of Mus musculus with 223 samples.

Results

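The cells described here are the Meis2-positive members of type 2, a group of Htr3a-GFP+ interneurons (INs) from the early postnatal mouse cortex. A type 2 IN was taken as Meis2-positive when its Meis2 level was above 10 RPM, reads per 1000000 mapped, which is the count on a gene scaled by the depth of its cell. This held for 10 of the 50 type 2 cells, 3 of 31 at postnatal day 2 (P2) and 7 of 19 at P5, in a series that also holds 82 cells of E18 and numbers 66 at P2 and 75 at P5. The remaining 40 type 2 cells, 28 at P2 and 12 at P5, are the side they were set against, and 22 type 1 cells at P2 and 34 at P5 stand beside both. Meis2 chose the members, so its own levels are given as a description.

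All cells came from Htr3a-GFP transgenic mice, in which regulatory sequences of Htr3a, the gene of a serotonin receptor subunit, drive enhanced GFP, so the reporter marks cells by that promoter. Cortices with their white matter were dissociated from pooled embryos at E18 and from pooled pups at P2 and P5, GFP+ cells were sorted by FACS, and single cells were captured on Fluidigm C1 chips. Their cDNA was made with SMARTer chemistry, read from both ends and counted without molecular identifiers. The type of each postnatal cell is the authors' own assignment, drawn from these same counts. All mice carried the transgene on a C57BL/6 background and both sexes were used, and no treatment separated the groups. E18 and P2 tissue was dissociated warm and P5 tissue at room temperature.

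Each age was 1 pool of brains and the animal of a cell is not named, so each side of a comparison is 1 sample, cells are not replicates, and no test was made. The methods give 1 chip at P2 and more than 1 at P5, and the labels do not name the chip of a cell. Mapped read pairs ranged from 7428919 to 9694711 in the Meis2-positive cells at P2 and from 8034240 to 11568244 at P5, beside 7723532 to 12070579 and 6606936 to 15840130 in the other type 2 cells. Genes above 10 RPM numbered 2482 to 2788 per Meis2-positive cell at P2 and 2616 to 4108 at P5, beside 1491 to 3018 and 2165 to 3654. Each cell was a library of its own, so no barcode was shared. All P2 cells carry the label of 1 library set, called A here. At P5 the Meis2-positive cells numbered 1, 1 and 5 in sets B, C and D, and the other type 2 cells 1, 2 and 9.

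MEIS2 is a homeodomain transcription factor of the TALE family, whose members bind DNA together with PBX partners. It is known from the lateral ganglionic eminence (LGE), from striatal neurons and from the INs that migrate to the olfactory bulb. Cortical Htr3a-expressing INs arise for the most part in the caudal ganglionic eminence (CGE), whose factors include PROX1, NR2F1, NR2F2, NPAS1 and NPAS3. The study's type 1 INs are those rich in Meis2 and LGE factors, whereas type 2 INs carry the CGE factors, and a Meis2-positive type 2 cell is therefore one in which the marker of the first type was read in a cell placed in the second.

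Meis2 lies at chr2:115863064-116065839 on the minus strand of GRCm38, and no other annotated gene overlaps it. At P5 the Meis2-positive type 2 cells held 1234, 1184, 481, 94.3, 51.5, 46.4 and 39.6 RPM of Meis2, in the cells labelled cell209, cell182, cell200, cell165, cell154, cell217 and cell203. At P2 they held 96.2, 47.4 and 42.01 RPM, in cell97, cell131 and cell123. The threshold fell into a wide gap. The other type 2 cells lay at or below 3.20 RPM at P5 and at or below 4.33 RPM at P2, so that no cell lay between 4.33 and 39.6 RPM. Pooled over cells, Meis2 stood at 483 RPM in the Meis2-positive cells at P5, beside 1.16 RPM in the other type 2 cells and 673 RPM in type 1 INs. At P2 the pooled levels were 63.2, 0.748 and 192.6 RPM. The share of Meis2-positive cells within type 2 was 9.68% at P2 (exact 95% binomial interval 2.04 to 25.8%) and 36.8% at P5 (16.3 to 61.6%). The intervals overlap, they cover counting error only, and age, chip, library set and dissociation protocol cannot be told apart.

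**Figure D1:**
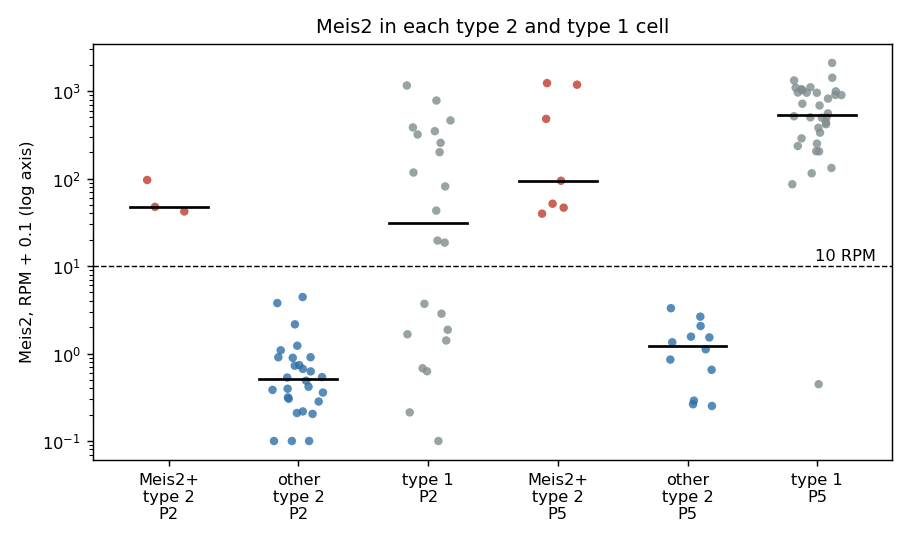
Meis2 level (RPM + 0.1, log axis) of each Meis2-positive type 2, other type 2 and type 1 cell at P2 and P5, 1 point per cell, with the median of each group as a bar and the 10 RPM threshold dashed. The 7 Meis2-positive cells at P5 spread from 39.6 to 1234 RPM, and the type 2 cells below the threshold stay at or under 4.33 RPM.

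The type 2 label was checked against 4 CGE markers, Prox1, Nr2f2, Npas3 and Maf. All Meis2-positive cells, 3 at P2 and 7 at P5, were above 10 RPM for at least 2 of the 4, as were 25 of the 28 other type 2 cells at P2 and 11 of the 12 at P5. Of 3 type 1 markers other than Meis2, at least 2 were found in 4 of the 7 Meis2-positive cells and 4 of the 12 other type 2 cells at P5, and in 0 of 3 and 3 of 28 at P2. Of 10 genes of GABAergic identity, the Meis2-positive cells held 4 to 7 at P2 and 2 to 7 at P5. Among type 1 cells, at least 2 CGE markers were found in 10 of 34 at P5 and 6 of 22 at P2, and at least 2 type 1 markers in 27 of 34 and 11 of 22. All 10 Meis2-positive cells thus carried CGE markers, which some type 1 cells also did. At P5 the median number of CGE markers was 2 in Meis2-positive, 3.5 in other type 2 and 1 in type 1 cells. In cell200 and cell217 only Nr2f2 and Npas3 passed 10 RPM, with Prox1 at 0.0864 RPM or less and Maf at 3.89 and 5.65 RPM.

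A gene was called higher or lower when the log2 fold of its pooled level, taken as RPM + 1, was at least 1 away from 0 and stayed so when any 1 cell of either side was left out. The fold is of the Meis2-positive over the other type 2 cells, over the genes, Meis2 apart, that exceeded 10 RPM in over 5% of type 2 cells of the age. At P5, 11573 genes were tested, of which 9.28% were called higher and 12.9% lower, and the median fold over all of them was -0.11. Counts of called genes below are to be read against those shares.

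Several LGE and olfactory bulb IN factors were higher in the Meis2-positive cells at P5. Of the 11 that could be tested, 4 were called higher, among them Etv1, Meis1 and Pax6, and 0 lower, with a median fold of 2.11. Etv1, an ETS factor of olfactory bulb INs, stood at 508 RPM in cell209, 1476 RPM in cell182, 34.98 RPM in cell154 and 11.8 RPM in cell165, and below 1 RPM in the other three. In the 12 other type 2 cells its median was 0.23 RPM and its highest value 468 RPM, with 3 cells above 10 RPM. The sides therefore overlapped, and pooled Etv1 was 292 RPM (exact 95% Poisson interval 288 to 296 RPM) against 43.9 RPM (42.7 to 45.2 RPM), beside 306 RPM in type 1 INs.

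Meis1, which encodes a close relative of MEIS2, was above 10 RPM in cell209 and cell154 only, at 432 and 434 RPM, while the other 5 held 2.07 RPM or less and the other type 2 cells 1.52 RPM or less. The paired box factor Pax6 reached 1057 RPM in cell217, 217.8 RPM in cell209, 152.4 RPM in cell200 and 13.4 RPM in cell165. Sp8, a zinc finger factor of both LGE and CGE lineages, was above 10 RPM in 6 of 7 Meis2-positive and 9 of 12 other type 2 cells and was not called, with a fold of 0.97. The same cells did not carry all of these factors, and cell209 alone was above 10 RPM for Etv1, Sp8, Sp9, Pbx3, Meis1, Tshz1 and Pax6 together.

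Genes that lead type 1 INs, a list chosen on these cells and so no independent evidence of its direction, had 5 of 11 called higher and 0 lower, with a median fold of 2.11. Mpped2, a metallophosphoesterase gene, was at 0.11 RPM or less in all 12 other type 2 cells. In the Meis2-positive cells it stood at 196.3 RPM in cell217, 176.1 RPM in cell182, 98.9 RPM in cell209 and 43.3 RPM in cell165, and it was listed at 0 in the other three. Prokr2, a prokineticin receptor gene with a role in olfactory bulb IN migration, reached 1210 RPM in cell209, 813 RPM in cell182 and 18.1 RPM in cell165, against a highest value of 29.2 RPM in the other type 2 cells. Slc15a2, a peptide transporter gene, was at 1506, 400 and 153.2 RPM in cell217, cell165 and cell182, and at most 1.73 RPM in the other side. Mpped2, Prokr2 and Slc15a2 thus appeared in overlapping but different subsets of the 7 cells.

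CGE factors went the other way at P5. Of 15 tested, 0 were called higher and 7 lower, with a median fold of -1.05. They were Prox1, Nr2f1, Npas1, Maf, Nfix, Zeb2 and Adarb2. Prox1, a homeobox factor that CGE-derived INs need for their placement in the cortex, was at 345 RPM in cell209 and 16.5 RPM in cell203, and at 1.60 RPM or less in the other 5 Meis2-positive cells. In the other type 2 cells its median was 526 RPM and 9 of 12 were above 10 RPM. The pooled level was 61.4 RPM (59.5 to 63.3 RPM) against 485 RPM (481 to 489 RPM), and 68.9 RPM in type 1 INs.

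Maf, a basic leucine zipper factor of cortical INs, separated the sides by level more than by presence. It ran from 3.89 to 315 RPM in the Meis2-positive cells, with 5 of 7 above 10 RPM, and from 51.8 to 1119 RPM in the other type 2 cells, all 12 above 10 RPM. Zeb2, which directs INs to the cortex, was at 3.80 to 145.2 RPM against a median of 549 RPM, and pooled at 60.7 against 566 RPM. Nr2f2 and Npas3 were not called, with folds of -0.92 and 0.33, and were above 10 RPM in 5 of 7 Meis2-positive cells each. Of 5 genes that lead type 2 INs, chosen on these cells, Cnr1 and Ap1s2 were called lower. Ap1s2 was not called without the cells that hold at least 5 of the glial markers described next, with a fold of -0.74, and Azin1 was called lower there. Cnr1, the cannabinoid receptor gene, was present in all 7 Meis2-positive cells, at 46.1 to 687 RPM in 6 of them and at 3390 RPM in cell203, beside a median of 2961 RPM in the other side.

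**Figure D2:**
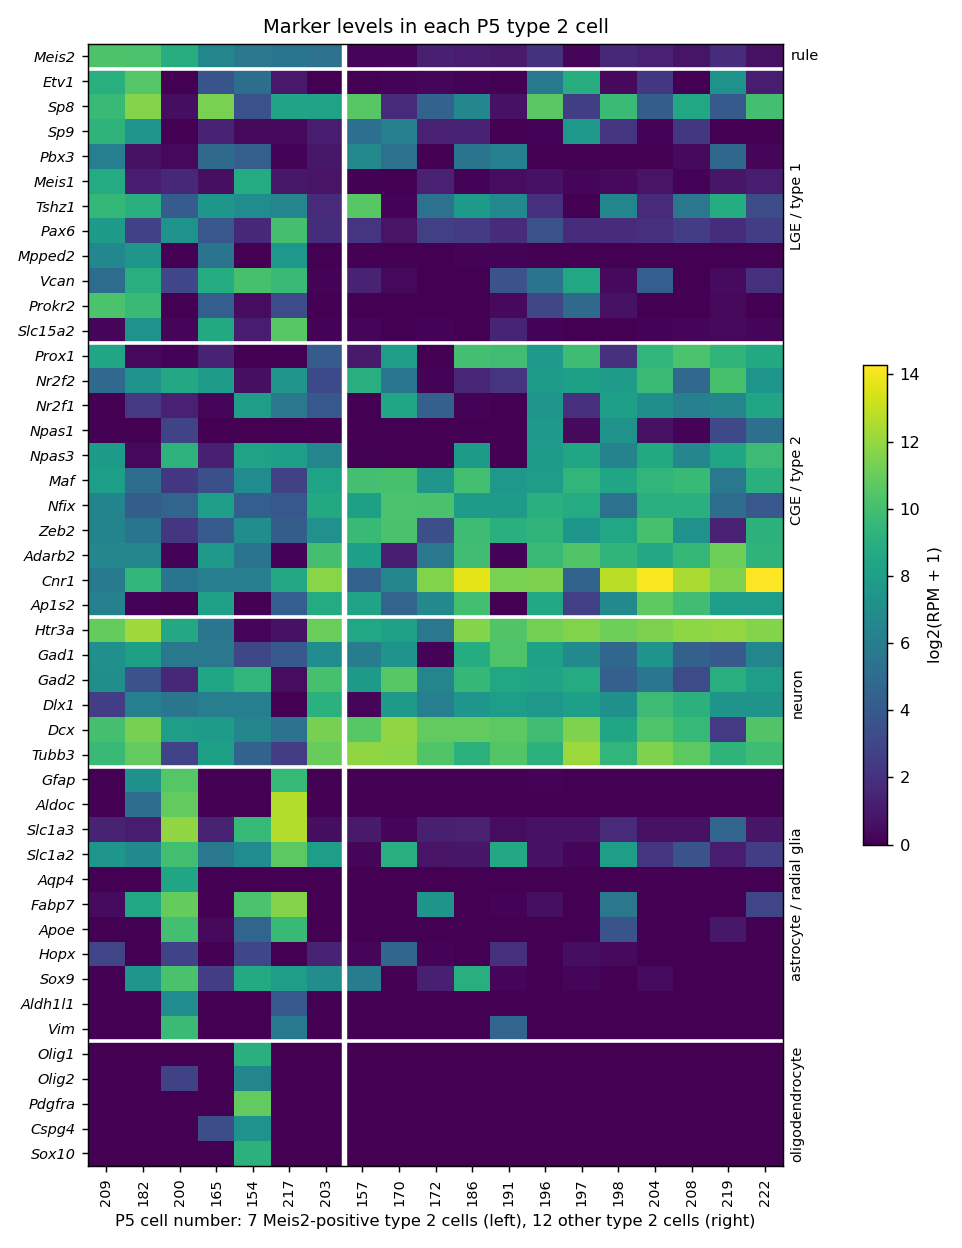
Levels, as log2(RPM + 1), of marker genes in each of the 19 type 2 cells of P5, with the 7 Meis2-positive cells left of the white line in order of falling Meis2 and the 12 other type 2 cells to its right. Astrocyte markers light up in cell182, cell200, cell154 and cell217 and oligodendrocyte markers in cell154, while the CGE block is darker on the left than on the right.

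Markers of astrocytes and radial glia were high in some of the Meis2-positive cells at P5. Of 11 such markers 9 were called higher and 0 lower. For 4 of the 11 a side held under 3 counts in all, so their folds depend on the 1 RPM added, and markers such as Aldoc and Gfap passed the filter on low values through the Meis2-positive cells alone. Aldoc, the aldolase of astrocytes, was at 6320 RPM in cell217, 1837 RPM in cell200 and 34.6 RPM in cell182, and was listed at 0 in the remaining Meis2-positive cells and in all 12 other type 2 cells. Gfap, the astrocyte intermediate filament, was at 1478, 740 and 139.4 RPM in cell200, cell217 and cell182, and at 0.100 RPM or less in every other type 2 cell. Slc1a3, the glutamate transporter of radial glia and astrocytes, was at 6257, 3755 and 744 RPM in cell217, cell200 and cell154, and at 24.4 RPM or less in the other side.

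Counted per cell, 10, 9, 5 and 5 of the 11 markers were above 10 RPM in cell200, cell217, cell182 and cell154, and 1, 1 and 2 in cell209, cell165 and cell203. The other type 2 cells of P5 held 0 to 3. At least 5 markers were thus found in 4 of 7 Meis2-positive cells (57.1%, exact 95% binomial interval 18.41 to 90.10%) and in 0 of 12 other type 2 cells, which allows a share of up to 25%. They were found in 0 of 34 type 1 and 0 of 22 type 3 cells at P5, in 0 of 66 cells at P2, and in 1 of 82 cells at E18. Slc1a2, Fabp7 and Sox9 are not restricted to glia here, since 4, 2 and 2 of the 12 other type 2 cells were above 10 RPM for them.

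Cell154 also carried markers of the oligodendrocyte lineage. It held 1814 RPM of Pdgfra and 574 RPM of Sox10, the receptor and the factor of oligodendrocyte precursors, with 536 RPM of Olig1, 157.3 RPM of Cspg4 and 91.2 RPM of Olig2. These 5 genes were listed at 0 in all 12 other type 2 cells. Mbp, a gene of myelinating cells, was at 0.12 RPM in it. Rgs5, a gene of pericytes, was at 1178 and 386 RPM in cell217 and cell200, and Pdgfrb, another pericyte gene, at 14.9 RPM in cell217. Of the endothelial markers Cldn5, Kdr and Flt1 were listed at 0 in all 7 cells, and Pecam1 was at 61.9 RPM in cell203 and at 0.991 to 4.09 RPM in the other 6. Of the microglial markers, C1qa, C1qb, Csf1r, P2ry12, Aif1 and Tyrobp were listed at 0 in both sides, and Cx3cr1 pooled at 2.43 against 3.80 RPM.

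The cells with glial markers had little of some neuronal and IN genes. Tubb3, the neuronal tubulin gene, was at 6.22 RPM in cell200, 4.96 RPM in cell217 and 21.4 RPM in cell154, whereas cell182, cell209, cell165 and cell203 held 1866, 800, 277 and 2005 RPM and the other type 2 cells 571 RPM or more. Htr3a itself was at 0.59 RPM in cell217 and 0.12 RPM in cell154, and at 389 RPM in cell200 and 4681 RPM in cell182. Gad1 was above 10 RPM in 6 of the 7, including cell200 and cell217, and cell154 held 665 RPM of Gad2. Cell182 differed from the other three in that its Tubb3, Dcx and Htr3a levels lay within the range of the other type 2 cells or above it. Every deposited cell had at least 1 read on eGFP per the methods. They also describe a microscope check that capture sites held single GFP+ cells. Doublets were not called here, so the part of a second cell in these values was not tested.

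**Figure D3:**
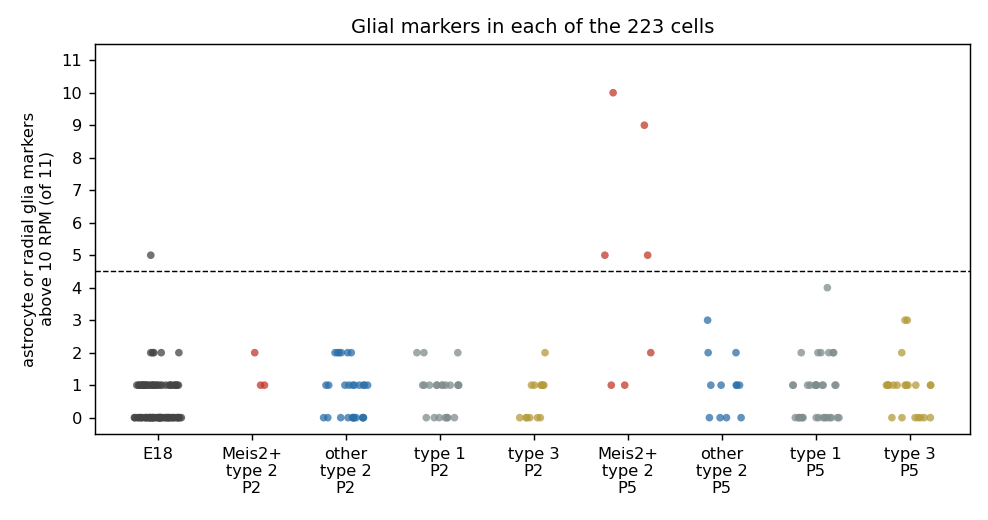
Number of the 11 astrocyte or radial glia markers above 10 RPM in each cell of the series, by age and type, 1 point per cell, with the dashed line just below 5 markers. The 4 cells with 5, 5, 9 and 10 markers among the Meis2-positive type 2 cells of P5 lie above every other postnatal cell.

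Without the cells that hold at least 5 of those markers, 3 Meis2-positive cells remain at P5 against 12, and the shares of genes called were 4.14% higher and 21.4% lower. Of the 1074 genes called higher with all 7 cells, 281 were still called, and of the 1489 called lower, 1221. None of the 9 glial markers kept its call, and Gfap, Slc1a3, Fabp7, Apoe, Sox9 and Vim changed sign. The LGE factors Etv1 (2.22), Meis1 (6.90) and Pax6 (4.21) kept their direction and were not called. Mpped2 (5.71) and Prokr2 (7.22) kept theirs among the type 1 genes. Of the 7 CGE factors 5 kept their call, Prox1 (-1.74), Nr2f1 (-4.37), Npas1 (-4.97), Maf (-1.53) and Zeb2 (-2.72), and Nr2f2 was called lower as well. Most of the lower CGE factors were therefore called with and without the cells that carry glial markers, in a comparison whose background of lower calls had grown to 21.4%, while Etv1, Meis1 and Pax6 were not called with 3 cells left. The limit of 5 markers was chosen after the values had been seen, and a limit of 3 markers, which leaves out the same 4 Meis2-positive cells and cell198 of the other side, gave the same calls for these LGE and CGE factors, with 4.52% of genes called higher and 20.4% lower. Without cell200, cell217 and cell154 alone, 5.25% of genes were called higher, and Etv1 (3.52), Sp8 (1.73) and Sp9 (3.19) were among them. Within library set D, with 5 against 9 cells, the CGE factors had folds of -3.09 (Prox1), -2.01 (Maf), -3.12 (Zeb2), -1.88 (Adarb2), -2.99 (Nr2f1), -4.24 (Npas1) and -1.53 (Nfix).

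The 3 Meis2-positive cells with few glial markers were unlike each other. Cell209, with the highest Meis2 of all type 2 cells, had 4 of 4 CGE markers and all 3 type 1 markers. Cell165 held 2711 RPM of Sp8, 452 RPM of Vcan and 400 RPM of Slc15a2. It also held 9501 RPM of Reln and 509 RPM of Ndnf, which encode extracellular proteins, and 103.7 RPM of Zic1. The excitatory neuron markers Slc17a6 and Tbr1 were at 112.3 and 44.1 RPM in cell165, and its cell type was not tested. Cell203, with the lowest Meis2, held 1083 RPM of Adarb2, 3390 RPM of Cnr1 and 315 RPM of Maf, all within the range of the other type 2 cells, and listed Etv1, Prokr2 and Mpped2 at 0.

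Other groups had fewer calls at P5. Of 10 genes of GABAergic identity, 2 were called lower, Dlx5 among them, and 0 higher, with a median fold of -0.72. Dlx5, a homeobox factor of GABAergic neurons, pooled at 21.6 against 167.2 RPM. Of 16 IN subtype markers 11 were tested. Ndnf was called higher, for cell165 and cell217, and Cck lower, since it was listed at 0 in all 7 and was above 10 RPM in only 2 of the 12 others. Ndnf was not called, and Cck was, without the cells that hold at least 5 glial markers.

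Of 14 genes of migration and immaturity 13 were tested, with Prokr2 and Nrg1 called higher and Tubb3 and Stmn2 lower. Without the cells that hold at least 5 glial markers Prokr2 alone of these 4 was called, and Epha4 was called lower. Dcx and Sox11, which mark young neurons, were above 10 RPM in all 7 Meis2-positive cells and were not called, with folds of -0.70 and -0.27. Of 14 genes of chloride balance and early synapses, the AMPA receptor gene Gria2 was called higher, at 611 against 120 RPM, and 3 genes lower, Slc12a2 and Grin1 among them. Foxp1 was called higher, with and without the cells that hold at least 5 glial markers, among the genes of striatal or intercalated neurons, and Drd1, Drd2, Ppp1r1b, Isl1 and Tac1 were listed at 0 in every type 2 cell of P5. Of 10 markers of excitatory neurons 3 were tested and 0 called, and Top2a alone was called among 4 cell cycle genes.

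Immediate early genes, which dissociation can induce, were higher in the same comparison. Fos, Jun, Junb and Egr1 were called higher of 7 tested, and 0 lower. Egr1 pooled at 3881 against 579 RPM, at 9813 RPM in cell217, 9654 RPM in cell182 and 4698 RPM in cell200, and was listed at 0 in cell203. Fos reached 9171 RPM in cell217. Without the cells that hold at least 5 glial markers 0 of these 4 genes were called higher. Egr1 and Jun changed sign there, to -0.67 and -0.13, and 1 other gene of the list was called lower. The part of dissociation in the other differences was not tested.

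The genes with the most stable high folds at P5 were Plpp3, Spcs3, Mmd2, Ugdh, Oat, Trps1, Ptn, Pcdh11x, Mpped2, Scaf8, Usp42 and Akap13. Plpp3, a lipid phosphatase gene, was at 1076, 723, 460 and 147.4 RPM in cell217, cell200, cell209 and cell154 and at 0.100 RPM or less in all other type 2 cells. Spcs3, a subunit of the signal peptidase, was above 10 RPM in 5 of 7 Meis2-positive cells, at 797 RPM pooled, against at most 8.398 RPM in any other type 2 cell. Mmd2 and Ptn were highest in cells with glial markers. Mmd2 was at 2433, 1555 and 306 RPM in cell200, cell217 and cell154, and the growth factor gene Ptn was at 914, 1799 and 1009 RPM in the same cells. Pcdh11x was at 822 RPM in cell154 and 263 RPM in cell203, and listed at 0 in cell209, cell182 and cell217. Scaf8 was highest in cell209 and cell203, at 458 and 327 RPM, and at 44.3 RPM or less in the other 5. Within library set D all 12 were called higher again, and 7 of the 12 were called without the cells that hold at least 5 glial markers.

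The 12 most stable low folds at P5 included those of Pcgf3, Cd99l2, Gars, Wnt5a, Dlgap2, Hars, Atp2b2, Pip5k1c, Gorasp2, Snrpn and Exosc7. Pcgf3, a polycomb ring finger gene, was at 0.67 RPM or less in the 7 Meis2-positive cells and above 10 RPM in 6 of the 12 others, which pooled at 280 RPM. Snrpn, an imprinted splicing protein gene, was at 6.61 RPM or less against 161.4 RPM pooled, with 10 of 12 above 10 RPM. Gars and Hars, the glycyl and histidyl transfer RNA synthetases, pooled at 0.0297 and 0.906 RPM against 89.6 and 110.9 RPM. All 12 were also called lower within set D and without the cells that hold at least 5 glial markers. Their pooled levels in type 1 INs lay between those of both sides, from 13.8 RPM for Cd99l2 to 137.5 RPM for Pip5k1c.

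At P2 the Meis2-positive side holds 3 cells against 28, and the comparison is lopsided. Of 9213 genes tested, 2.16% were called higher and 42.4% lower, and the median fold was -1.47. With the difference of the mean log2(RPM + 1) of cells in place of pooled levels the median was -0.10, with 7.37% of the genes called higher and 9.02% lower. Folds at P2 are therefore to be read beside that median.

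Unlike at P5, the CGE factors were not generally low in the Meis2-positive cells of P2. Of 15 tested, 0 were called higher and 2 lower, Prox1 and Adarb2, with a median fold of 0.09 beside -1.47 over all genes. Maf was at 852, 1514 and 480 RPM in cell97, cell131 and cell123, against a median of 331 RPM in the other type 2 cells and 1.47 RPM in type 1 INs. All 3 lay above the median of the other side, and cell131 above its highest value of 1407 RPM. Maf was not called, with a fold of 1.28. Cnr1 was at 1592, 161.9 and 8062 RPM and its pooled level, 3521 RPM, was close to the 3143 RPM of the other type 2 cells. Prox1 was at 37.02 RPM in cell131 and at 2.08 RPM or less in cell97 and cell123, at an age when 11 of 28 other type 2 cells were above 10 RPM.

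Of 8 LGE factors tested at P2, 0 were called higher and 2 lower, with a median fold of -0.64 beside -1.47 over all genes. Both of these, Etv1 and Pbx3, were listed at 0 in all 3 cells. Counted per cell, 1 to 5 of the 14 LGE factors were above 10 RPM, with a median of 3, beside 0 to 5 with a median of 2 in the other type 2 cells. Tshz1 was at 459 RPM and Sp9 at 35.7 RPM in cell131 alone, and Pax6 at 104.9 RPM in cell123. Meis1 was at 1.86 RPM or less. Sp8 was above 10 RPM in all 3, at 14.8, 391 and 1872 RPM in cell97, cell131 and cell123, and in 19 of the 28 others. Of the type 1 genes 8 were tested, and Vcan was called higher and Mpped2, Pbx3, Zfp606 and Tbpl1 lower. The fold of Mpped2 changed sign to 0.28 with mean log2 values. Glial markers did not accompany Meis2 at P2, with 1, 1 and 2 of 11 above 10 RPM and with Gfap, Aldoc, Apoe, Aqp4 and Aldh1l1 listed at 0 in all 31 type 2 cells. Of 9 GABAergic genes tested 0 were called higher and 2 lower, beside the 42.4% of all genes, and their median fold was 0.41. These were Gad1 and Gad2, at 38.5 against 176.4 RPM and 61.7 against 217.05 RPM, and the fold of Gad2 changed sign to 0.12 with mean log2 values.

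The 5 genes with the most stable high folds at P2 included Gm16110, Tk2, Rin2 and Mast3. Mast3, a kinase gene, was at 471, 323 and 336 RPM in the 3 cells, and above 10 RPM in 3 of the 28 others, which pooled at 7.63 RPM. It was the only one of the 5 above 10 RPM in all 3 cells. Gm16110 lies antisense to Reln, and the sources used here do not say whether counting used strand. At P5 Mast3 was at 0.12 RPM or less in the 7 Meis2-positive cells, and of the 5 genes Rin2 alone was called higher there. The most stable low folds at P2 were those of Ssr3, Nudt3, Hars, Ppfia2 and Maged1. Maged1, which regulates neuronal survival and migration, was at 0.21, 9.02 and 0.21 RPM, while 24 of the 28 other cells were above 10 RPM and pooled at 577 RPM.

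The calls of both ages were then set side by side. Of 8330 genes tested at both, 0.216% (18 genes) were called higher at both ages, where 2.16% had been called higher at P2 and 9.28% at P5, and 7.05% (587 genes) lower at both, 4.31% were lower at P2 and higher at P5, and 0.348% the reverse. The ages hold different cells and libraries, and no difference between them was tested. The share called higher at both ages is near the product of the shares at P2 and P5, which unrelated calls would give. The 18 genes are therefore not read as a set shared by the ages. By the fold nearest to 0 over both ages and all omissions of 1 cell, for genes found above 10 RPM in 50% or more of the higher side, the highest genes were Vcan, Kmt2a, Katnal1, Tmpo, Dtx3, Scyl2, Bach2, Qk, Cpsf2 and Ppip5k1. The call was met at both ages by Vcan, Kmt2a, Katnal1, Tmpo, Dtx3, Scyl2 and Bach2. Within library set D 3 of the 10 were called higher at P5.

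Vcan, the chondroitin sulphate proteoglycan versican, came first. Its level was at 181.9, 365 and 433 RPM in the 3 Meis2-positive cells of P2 and at 1091, 818, 484, 452, 31.5, 7.35 and 0.11 RPM in the 7 of P5. The other type 2 cells had medians of 1.04 and 0.96 RPM, with 10 of 28 and 4 of 12 above 10 RPM. All 3 cells at P2 and 5 of 7 at P5 were thus above 10 RPM, though the highest cells of the other side, at 469 and 376 RPM, overlapped them. The pooled folds were 2.43 at P2 and 3.73 at P5, and type 1 INs pooled at 440 and 510 RPM. Vcan is also a gene of oligodendrocyte precursors and its highest level among type 2 cells was in cell154. Without the cells that hold at least 5 glial markers its P5 fold was 2.31 and it was not called. Vcan overlaps 2 annotated genes on the opposite strand.

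Kmt2a, a histone methyltransferase gene, was above 10 RPM in all 3 Meis2-positive cells at P2, at 62.5 to 1019 RPM, and in 6 of 7 at P5, at 8.71 to 525 RPM. The other type 2 cells were above 10 RPM in 14 of 28 and 3 of 12. Its fold was 2.38 at P2, 2.28 at P5 and 2.85 at P5 without the cells that hold at least 5 glial markers, where it was still called. Within set D its fold was 1.49 and it was not called.

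The genes lowest at both ages were Hars, Pclo, Dzip3, Coro1c, Rabgap1, Ptprd, Rassf2, Fam168a, Bex2 and Psd. Hars was listed at 0 in the 3 cells of P2 and was at 4.26 RPM or less in the 7 of P5. In the other type 2 cells 15 of 28 and 7 of 12 were above 10 RPM, with pooled levels of 160.5 and 110.9 RPM, and type 1 INs pooled at 42.5 and 66.01 RPM. No Meis2-positive cell of either age thus passed 10 RPM. Hars shares part of its locus with Hars2 on the opposite strand. Pclo, the presynaptic scaffold piccolo, pooled at 3.67 against 106.2 RPM at P2 and at 7.29 against 155.5 RPM at P5. Bex2 was above 10 RPM in 1 of 3 and 4 of 7 Meis2-positive cells, beside 21 of 28 and 11 of 12 others.

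**Figure D4:**
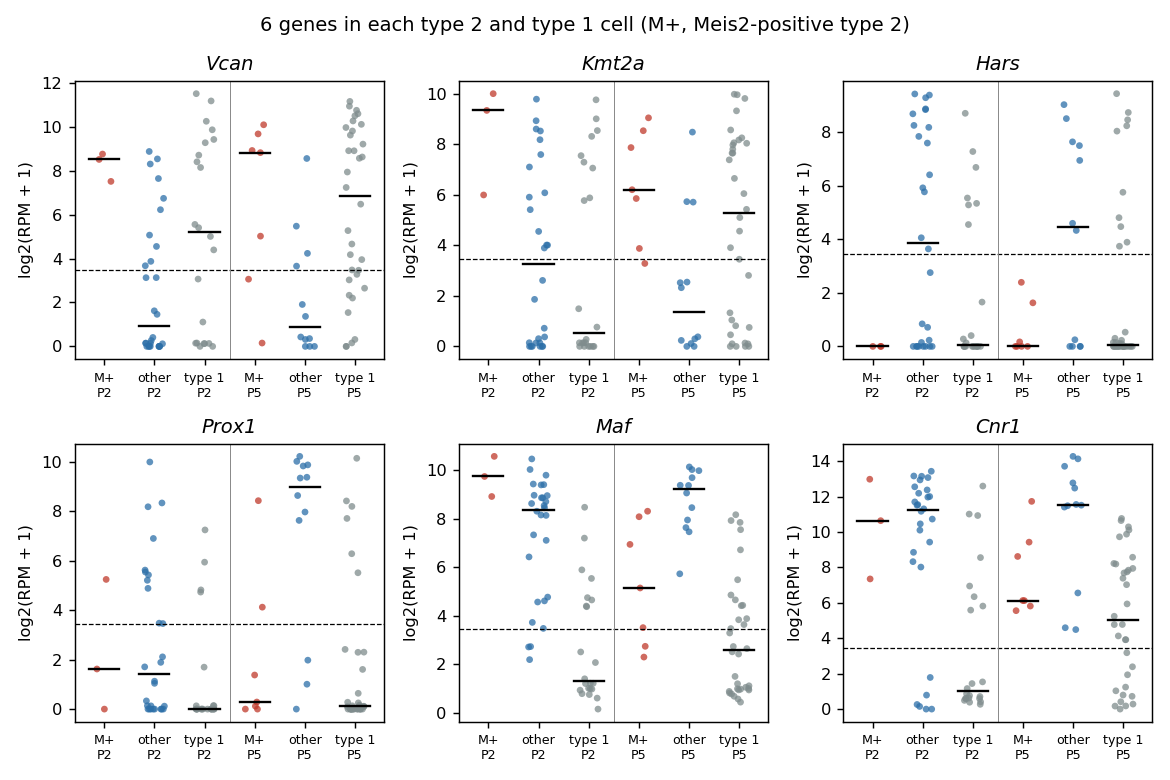
Levels, as log2(RPM + 1), of Vcan, Kmt2a, Hars, Prox1, Maf and Cnr1 in each Meis2-positive type 2, other type 2 and type 1 cell at P2 and P5, 1 point per cell, with medians as bars and 10 RPM dashed. Vcan and Kmt2a sit high and Hars low in the Meis2-positive cells of both ages, whereas Prox1, Maf and Cnr1 sit below the other type 2 cells at P5 and Maf and Cnr1 do not at P2.

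Beside type 1 INs, the Meis2-positive type 2 cells of P5 stood near neither side throughout. The pooled levels of Etv1 (292 and 306 RPM), Prox1 (61.4 and 68.9 RPM), Nr2f1 (40.8 and 39.3 RPM) and Slc15a2 (295 and 246 RPM) stood beside those of type 1 INs, but each rested on few cells. Without the highest cell the pooled levels were 106.96, 2.92, 11.7 and 81.3 RPM, further from type 1 INs. Type 1 INs kept their own highest cells in these comparisons. Maf (110 RPM) and Cnr1 (635 RPM) lay between type 1 INs (36.2 and 291 RPM) and the other type 2 cells (608 and 5521 RPM). Zeb2 (60.7 RPM) lay below both type 1 INs (348 RPM) and the other type 2 cells (566 RPM), and Pax6 (225 RPM) above both (97.1 and 4.03 RPM). Without the highest cell Cnr1 was at 213.8 RPM and Pax6 at 78.1 RPM, both below type 1 INs, while Maf, at 78.1 RPM, and Zeb2, at 47.8 RPM, kept their place. At P2 the levels of Maf were 902 RPM in the Meis2-positive, 372 RPM in the other type 2 and 32.4 RPM in the type 1 cells.

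Likeness was described by the Pearson correlation of log2(RPM + 1) over genes between each type 2 cell and the mean of type 1 INs or of the other type 2 cells, with the cell left out of its own mean. Genes are not independent and the means rest on different numbers of cells. At P5, over 9674 genes, 6 of 7 Meis2-positive cells and 2 of 12 other type 2 cells had the higher correlation with the type 1 mean. The differences of the correlations were small, from -0.00109 in cell203 to 0.0345 in cell182. At P2, over 8399 genes, 0 of 3 and 0 of 28 had the higher correlation with the type 1 mean. The 6 cells of P5 include cell154, cell182, cell200 and cell217, which hold at least 5 glial markers. Both correlations were lowest in cell200 and cell217 among P5 type 2 cells. They were 0.43 with the type 1 mean in each, and 0.41 and 0.42 with the other mean. With the genes that passed 10 RPM in 50% or more of cells the count at P5 was 4 of 7 against 2 of 12, and with Spearman's correlation 7 of 7 against 8 of 12. In the authors' t-SNE map the 5 nearest cells of the same age were all type 2 for 7 of 7 Meis2-positive cells at P5, and type 2 cells were most of the 5 for 2 of 3 at P2. The exception was cell131 of P2, with 4 of 5 neighbours of type 3. The count of other type 2 cells at P5 thus turned on the correlation used, and that of Meis2-positive cells on the genes.

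**Figure D5:**
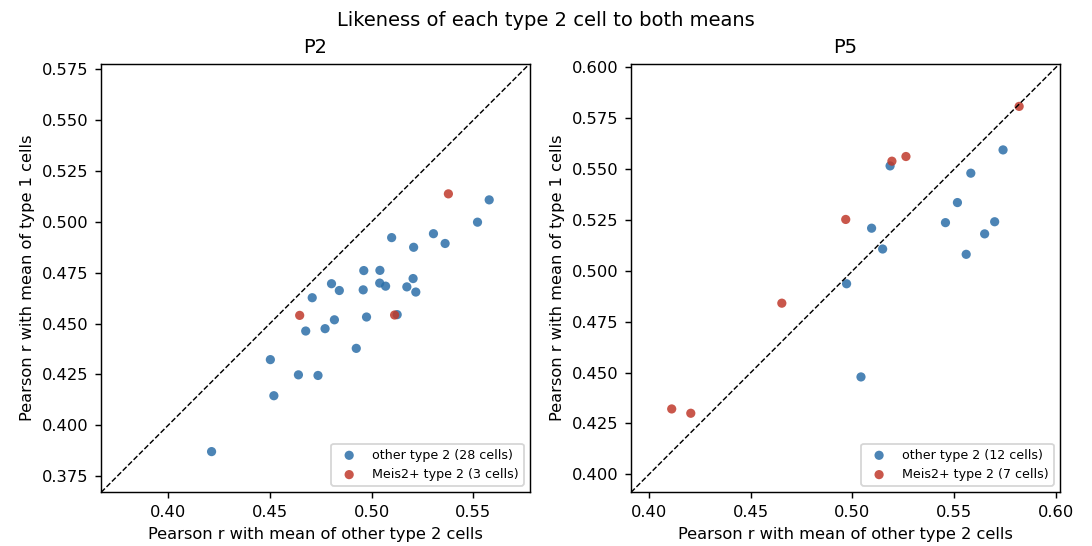
Pearson correlation of each type 2 cell with the mean of type 1 INs (vertical axis) against that with the mean of the other type 2 cells (horizontal axis) at P2 and P5, with equality dashed. All P2 cells lie below the line, and 6 of the 7 Meis2-positive cells of P5 lie above it.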

How the data were processed

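Single-cell RNA-seq counts of 223 cells were used. The authors aligned read pairs with TopHat to GRCm38 and deposited counts of read pairs on exons per gene from HTSeq 0.6.1, with a coefficient per cell that turns counts into RPM (reads per 1000000 mapped) and a type for each postnatal cell. The RPM values were computed here from those counts. Of 43629 genes, 42462 identifiers were paired with a name and 1167 were not, and 0 columns of samples were left unused. The members and gene lists were chosen with earlier results of these data known. Counts of a side were summed over cells, pooled RPM were given exact 95% Poisson intervals, and shares of cells exact 95% binomial (Clopper-Pearson) intervals. Both cover counting error only, and PCR copies are not independent molecules. A share of 0 was given the limit of 3 cells. With 1 pool of animals per age, no test was made and no p-value is given. The fold was the log2 ratio of pooled RPM + 1 over genes that exceeded 10 RPM in over 5% of type 2 cells, which understates low genes, and where a side was listed at 0 it depends on the 1 RPM added and is no bound.

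Genes were named by list or by rank, the latter as the 12 highest and 12 lowest genes at P5, 5 and 5 at P2 and 10 and 10 at both ages, by the fold nearest 0 when any 1 cell is left out, for genes found above 10 RPM in 50% or more of the higher side. Mapped read pairs ranged from 6606936 to 15840130 over type 1 and 2 cells and total counts on genes from 3058829 to 11692823. Whether counting used strand is not given in the sources used here, and 105 of 227 named genes overlap a gene on the opposite strand and 63 a gene on the same strand. Alternatives were other thresholds, pseudocounts, filters, scalings and sets of cells, with edgeR 4.0.16 and DESeq2 1.42.0 used only for scaling factors. Scripts were tested on simulated data and run in Python 3.11.15 with numpy 2.4.6, pandas 2.3.3, scipy 1.17.1 and matplotlib 3.10.9, and in R 4.3.3. The authors' SCDE analysis was not used, and doublets were not called. The values of some named genes are not reported here.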

Additional observations from a re-analysis of the deposited data

Results flagged for a closer look

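Among the genes of the lists and those named by rank, 10 had a fold of Meis2-positive over other type 2 cells that was called in opposite directions at P2 and P5, a subset of the 359 genes of all tested that were lower at P2 and higher at P5 and the 29 that went the reverse way. The difference between the ages was not tested, and the P2 values stand beside a median fold of -1.47 over all genes. Among factors and type 1 genes, Etv1 had a fold of -4.26 at P2 and 2.71 at P5, Mpped2 of -2.53 and 6.23, and Sox6 of -7.01 and 5.13. The P2 fold of Mpped2 changed sign to 0.28 with mean log2 values. Among glial transporters, Slc1a3 had -2.52 and 8.86 and Slc1a2 -2.30 and 2.32. Ndnf had -4.39 and 5.51, Egr1 -6.14 and 2.74, Nrg1 -4.45 and 5.74, and Spcs3 -5.85 and 8.81. Atp2b2, a calcium pump gene, was the only one of the 10 higher at P2, with 3.28, and lower at P5, with -5.85. At P5 Sox6 was above 10 RPM in cell154 alone, at 273 RPM. Etv1, Sox6, Ndnf, Nrg1 and Spcs3 were listed at 0 in all 3 Meis2-positive cells of P2, and Sox6 and Nrg1 in all 12 other type 2 cells of P5, so their folds there depend on the 1 RPM added to each level and are no bounds.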

How the results depend on the processing

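Alternatives that changed folds, pseudocounts and omissions of 1 cell apart, numbered 11. Under them 1227 of 1280 values of the called genes kept their direction and 53 did not, and the cause was not tested. Scaling by total counts, TMM or DESeq2 factors is counted here and gave 0 of the 53. It shifts all folds by nearly the same small amount, so it could hardly turn a called fold. Counts of called genes are given as a percentage of the genes tested in the same setting. At P2, 2.16% were called higher and 42.4% lower. These became 7.37 and 9.02% with the difference of mean log2(RPM + 1), 2.69 and 33.6% of fewer genes with a filter of 10 RPM in 20% of cells, 3.56% higher with TMM, 3.83% higher with DESeq2 factors, 20.5% lower with a pseudocount of 10 RPM and 16.4% higher on the fold over all cells. At P5, 9.28 and 12.9% became 5.03 and 6.44% with the pseudocount of 10 RPM, 9.63 and 15.9% of fewer genes with the 20% filter, 33 and 34.5% on the fold over all cells, 6.96% lower with mean log2 values and 5.94% higher at a Meis2 threshold of 50 RPM. They became 4.52% higher without cells of at least 3 glial markers, 4.14 and 21.4% without those of at least 5, and 5.25% higher without cell200, cell217 and cell154. The last 2 alternatives were chosen after seeing the data. For both ages, 0.216 and 7.05% became 0.06 and 2.61% (pseudocount of 10 RPM), 0.972 and 1.46% (mean log2), 0.214 and 5.55% (20% filter), 5.07 and 20.4% (fold over all cells), 0.36% higher (TMM) and 0.372% higher (DESeq2). Leaving out 1 Meis2-positive cell gave 1.75 to 1.81% higher and 47.4 to 49.3% lower at P2, and 7.41 to 8.79% and 13.4 to 15.6% at P5. With Spearman's correlation 7 Meis2-positive and 8 other type 2 cells at P5 and 6 other type 2 cells at P2 were nearer the type 1 mean, beside 6, 2 and 0 with Pearson's.

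Folds changed sign as follows. At a Meis2 threshold of 50 RPM, they were -5.92 (Atp2b2), -4.37 (Tk2), -4.63 (Rin2), -5.90 (Tmpo), -2.51 (Dtx3) and -4.55 (Scyl2) at P2, with 1 cell left, and -0.21 (Slc15a2), -0.0696 (Aldoc) and -0.22 (Fos) at P5. With mean log2 values at P2 they were 0.28 (Mpped2), 0.12 (Gad2), 0.30 (Wnt5a) and 0.57 (Pip5k1c). Within set B, with 1 cell against 1, they were -0.56 (Pax6), 8.01 (Nr2f1), 1.64 (Cnr1), 4.48 (Slc12a2), 0.93 (Grin1), 0.46 (Atp2b2), 3.99 (Coro1c) and 3.34 (Bex2). Within set C, with 1 against 2, they were -0.21 (Meis1), 3.02 (Adarb2), 2.22 (Ap1s2), 1.81 (Dlx5), -2.29 (Slc1a2), -6.31 (Fabp7), -1.48 (Fos), -1.48 (Jun), 3.76 (Grin1), -0.0602 (Ptn), 2.45 (Rabgap1) and 0.38 (Bex2). Within set D it was 0.0903 (Nudt3). Without cell200, cell217 and cell154 they were -0.68 (Slc1a3), -0.77 (Apoe) and -1.59 (Vim). Without cells of at least 3 and of at least 5 glial markers they were -0.0131 and -0.0123 (Gfap), -0.68 and -0.67 (Slc1a3), -4.0015 and -4.15 (Fabp7), -0.0036 and -0.75 (Apoe), -0.26 and -0.17 (Sox9), -1.65 and -1.59 (Vim), -0.22 and -0.13 (Jun), and -0.76 and -0.67 (Egr1).

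Cells could not be paired, because each cell has a number of its own and the sides share none. Both sides do share library sets, and at P5 folds were also taken within them. Sets B and C, and P2 at a Meis2 threshold of 50 RPM, hold 1 Meis2-positive cell each and gave no count of called genes. Thinned to 3058829 counts per cell, 1311 of 1362 shares of cells kept their number of cells, and the largest change was 2 cells.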

Other observations

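Meis2 above 10 RPM was also found outside types 1 and 2. It was found in 11 of 82 cells at E18, in 1 of 13 type 3 cells at P2 and in 1 of 22 at P5. The type 3 cell of P2, cell87, held 915 RPM of Meis2 with 2100 RPM of Htr3a and no Prox1, and that of P5, cell220, held 97.9 RPM of Meis2 with 29.4 RPM of Prox1. One E18 cell, cell57, held 314 RPM of Meis2 with 5 of the 11 astrocyte or radial glia markers above 10 RPM, while Htr3a and Gad1 were listed at 0 in it.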
